A study of Homo sapiens with 6 samples.

Results

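The stretch described here runs from 187.4 to 189 Mb of chromosome 3 (hg19) and holds the genes BCL6 and LPP. Its members are the H3K27ac peaks of 2 lists that overlap this stretch, 101 of 56420 M2 peaks and 35 of 31444 THP-1 peaks. They were chosen by position, from the peak positions of both lists, and the stretch was proposed with its M2 peak density already known. Peak number, cover and overlap are therefore given as descriptions, with no test. The nearest peaks outside lay 313 kb before the stretch in both lists, and 10.6 kb (M2) and 11.2 kb (THP-1) after it. The nearest peaks inside lay 55.2 kb (M2) and 56.3 kb (THP-1) from the first bound and 3.73 kb (M2) and 3.74 kb (THP-1) from the last.

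THP-1 is a human monocytic leukaemia cell line. The other cells are labelled only as M2 macrophages, a name for macrophages in the alternatively activated state. The labels do not say from which cells these were made. The labels give the same culture medium for both and no differentiating agent, dose or time. Each cell type has 1 H3K27ac library, so no difference has a replicate check and no p-value is given. The labelled cell types were not checked against marker genes, because no hg19 gene positions beyond those of BCL6 and LPP were used here.

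Acetylation of histone H3 at lysine 27 (H3K27ac) is a mark of active promoters and enhancers. BCL6 is a zinc finger repressor of transcription, best known as the master regulator of germinal centre B cells, and in macrophages it restrains inflammatory genes. LPP is a LIM domain protein of focal adhesions and cell contacts, related to zyxin. In the RefSeq table LPP also holds the microRNA gene MIR28, and TPRG1 follows LPP. BCL6 is transcribed away from LPP, so the start of BCL6 is the end that faces LPP. The start of a gene means its outer bound here, and other RefSeq starts inside it were not placed against the peaks. Both gene bounds are known here to the nearest kb, and distances from them carry that rounding.

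The sequence around each gene's start is shown, 5′ to 3′, because the M2 list alone had a peak at the start of BCL6 while both lists had one at the start of LPP. The windows are those at the outer gene bound, of 2 RefSeq start windows for BCL6 and 7 for LPP, and hold 250 bases before the RefSeq start (GRCh38.p14) and 30 from it on. Capitals mark TTCNNNGAA, the form of site that STAT factors and BCL6 itself bind. The printed windows lie at chr3:187745439-187745718 on the minus strand for BCL6 and at chr3:188152771-188153050 on the plus strand for LPP.
BCL6: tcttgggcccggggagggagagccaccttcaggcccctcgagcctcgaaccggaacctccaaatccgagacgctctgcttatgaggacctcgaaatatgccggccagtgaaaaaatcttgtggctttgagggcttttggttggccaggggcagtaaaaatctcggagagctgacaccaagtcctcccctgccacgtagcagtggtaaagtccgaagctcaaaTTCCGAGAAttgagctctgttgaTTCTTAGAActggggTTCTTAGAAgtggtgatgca
LPP: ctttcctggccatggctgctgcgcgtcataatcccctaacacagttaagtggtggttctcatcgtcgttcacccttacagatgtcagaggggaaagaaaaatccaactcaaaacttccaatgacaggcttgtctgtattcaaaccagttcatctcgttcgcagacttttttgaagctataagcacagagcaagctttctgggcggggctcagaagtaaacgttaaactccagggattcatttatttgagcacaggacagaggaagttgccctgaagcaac

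In the full window of 300 bases TTCNNNGAA occurred 4 times for BCL6, at positions -28, -5, 11 and 37 counted from the first transcribed base, of which 3 are printed. Of 34796 distinct RefSeq promoter windows of that length 2669 (7.67%) held the motif at least 1 time and 7 (0.0201%) at least 4 times. The LPP window held none. The YY1 form AANATGGC and the AP-1 form TGANTCA were searched on both strands as well, occur in 6.58% and 7.73% of windows, and matched in neither of these windows. A match describes the letters only and shows no bound factor, and the YY1 libraries were not analysed here.

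At BCL6 the M2 list covered far more sequence than the THP-1 list. M2 peaks covered 8.60 kb of the 25 kb gene (34.4%) and THP-1 peaks 0.865 kb (3.46%), a ratio of 9.95. The main M2 peak, chr3:187456956-187464273, was 7318 bp wide, rank 113 by width among all 56420 M2 peaks. It spanned the start of BCL6 and ran 7045 bp into the gene. Its summit lay 570 bp inside the gene, with 7.74-fold enrichment over the local background. A narrower M2 peak, chr3:187455167-187456725, followed deeper in the gene with 4.89-fold enrichment.

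The THP-1 list had no peak within 2 kb of the BCL6 start. Its nearest peak, chr3:187458087-187458529, lay 5471 bp into the gene, was 443 bp wide and had 3.53-fold enrichment. The other THP-1 peak, chr3:187456253-187456674, was 422 bp wide with 2.26-fold enrichment. Over all chromosomes 75.3% of THP-1 peaks were shared, which means an overlap of 1 bp or more with an M2 peak, and 37.0% of M2 peaks were shared with THP-1. Both THP-1 peaks of BCL6 lay inside M2 peaks. BCL6 was thus marked in both lists, but the start at its outer bound only in the M2 list.

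The number of fragments over each summit was solved from the fold enrichment and p-value of the peak. Over the main M2 peak of BCL6 it was 234 fragments and over the narrower one 174. The THP-1 peaks held 48 and 84 fragments. Each number was multiplied by a scale solved for its list (0.842 for M2, 1 for THP-1). It was then divided by the lowest local background of that list, taken as the genome-wide level. On this measure the summit of the main M2 peak stood at 102 and that of the THP-1 peak inside it at 27.2. These summits lay 5163 bp apart, so they are not readings of the same spot. For the narrower pair, with summits 26 bp apart, the levels were 75.6 in M2 and 47.6 in THP-1, a ratio of 1.59. The local background there was 15.1 times the lowest in M2 and 20.7 times in THP-1. The background of THP-1 at the BCL6 start itself is not known, since the list has no peak there, and its part in the missing peak was not tested.

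**Figure D1:**
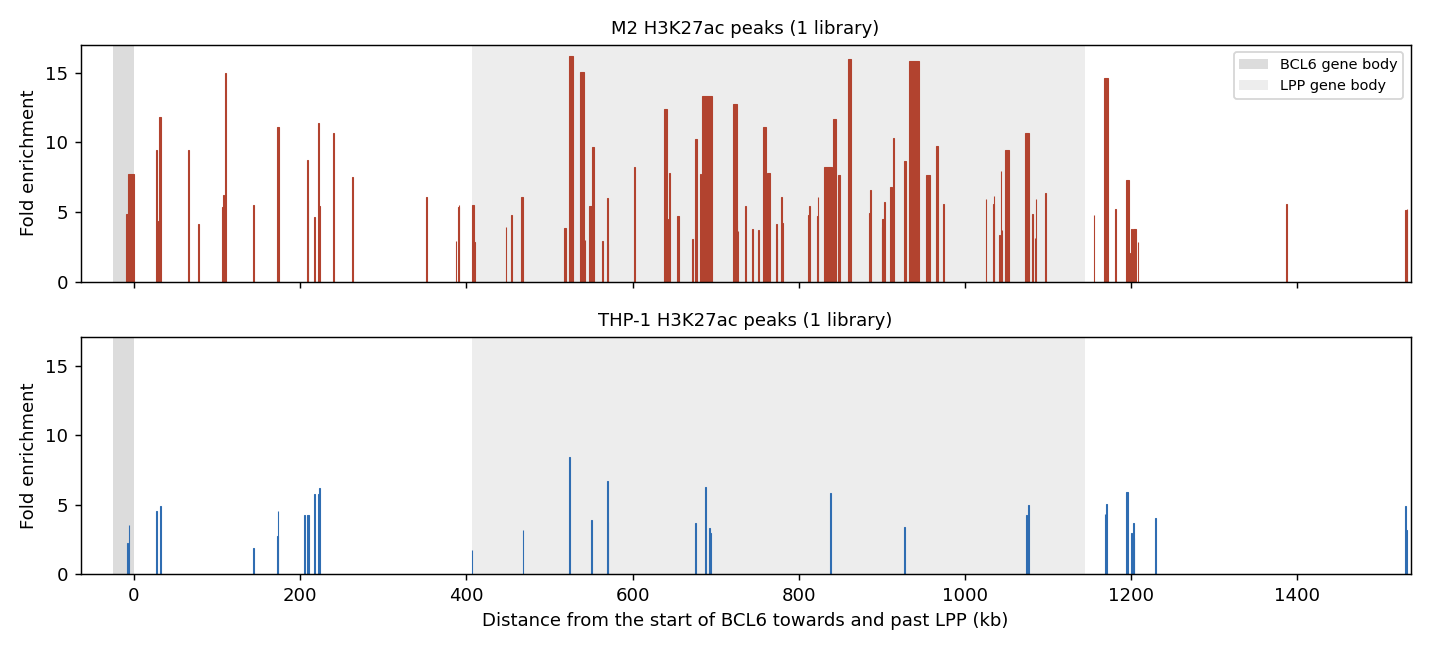
H3K27ac peaks of the M2 list (upper panel) and the THP-1 list (lower panel), 1 library each. The horizontal axis is the distance from the start of BCL6 in kb, with BCL6 to its left and LPP to its right (grey bands). Each bar spans 1 peak and its height is the authors' fold enrichment, which is relative to the background of its own list. Bars crowd the LPP band in the M2 panel (67 peaks) and are few there in the THP-1 panel (14 peaks).

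Between the genes the ratio of cover was lower. In the 400 kb from 187.47 to 187.87 Mb, M2 had 21 peaks over 20.3 kb (5.08%) and THP-1 had 10 peaks over 9.02 kb (2.25%). The ratio of covered length was 2.25, close to 2.19 over all chromosomes. Here 9 peaks of each list overlapped a peak of the other, 42.9% of the M2 and 90% of the THP-1 peaks. Over all chromosomes these shares were 37.0% and 75.3%. The M2 peak of highest fold enrichment here, chr3:187573381-187575467 (15.0-fold, 70 fragments), lay 32186 bp from the nearest THP-1 peak.

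By summit level, from which local background is not removed, several intergenic sites stood as high in THP-1 as in M2. By fold enrichment most of those named here were higher in M2. The widest THP-1 peak here, chr3:187672035-187674437, was 2403 bp wide and spanned 2 M2 peaks of 1002 and 390 bp. Its summit and that of the wider M2 peak, 66 bp apart, held 41 fragments each. The levels were 23.2 in THP-1 and 17.8 in M2, and the fold enrichments 4.28 and 8.72. At chr3:187686926-187687647 (6.19-fold in THP-1, 5.42-fold in M2) the THP-1 summit held 64 fragments (level 36.3) and the M2 summit 31 (level 13.5). These summits lay 33 bp apart. At chr3:187607654-187608319 the THP-1 summit level was 69.1 and the M2 level 45.2, while the fold enrichment was only 1.90 in THP-1 and 5.53 in M2. The local background there was 36.1 times the lowest in THP-1 and 7.74 times in M2. Across the 6 intergenic pairs in which each peak overlapped just the other, the M2 level was higher in 3, and the ratio of levels had a median of 0.896 (range 0.371 to 1.24).

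The ratio of M2 to THP-1 cover was highest within LPP, while the gap in percent covered was larger in BCL6. M2 peaks covered 142 kb of the 737 kb gene (19.2%) and THP-1 peaks 10.8 kb (1.47%), a ratio of 13.1. The M2 list had 67 peaks there and the THP-1 list 14. All 14 THP-1 peaks overlapped an M2 peak, and 92.3% of their sequence in LPP lay inside M2 peaks. Of the 67 M2 peaks 56 overlapped no THP-1 peak. Over all chromosomes 75.3% of THP-1 peaks and 37.0% of M2 peaks were shared. The 56 M2-only peaks of LPP spanned 94.6 kb and lay a median of 25.4 kb from the nearest THP-1 peak. That distance was not particular to LPP, with a median of 20.7 kb over all M2-only peaks.

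The start at the outer bound of LPP was marked in both lists, unlike that of BCL6. The M2 peak chr3:187870742-187873453 was 2712 bp wide, with 227 fragments over its summit and 5.49-fold enrichment. The THP-1 peak chr3:187870876-187871355 was 480 bp wide, with 101 fragments and 1.74-fold enrichment. Summit levels were 98.6 in M2 and 57.2 in THP-1, a ratio of 1.72 at summits 564 bp apart. The local background was 17.6 times the lowest in M2 and 32.6 times in THP-1. The M2 peak at the start reached 2453 bp into LPP, a small part of the 142 kb that M2 peaks covered in the gene.

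The widest peaks of LPP were in the M2 list. The widest, chr3:188147903-188159595, spanned 11693 bp (rank 19 of the M2 list) with 13.4-fold enrichment and held 3 THP-1 peaks of 359 to 808 bp. At the THP-1 peak whose summit was nearest, chr3:188151112-188151919 (6.26-fold), 59 bp away, the levels were 84.7 in M2 and 19.8 in THP-1. The next, chr3:188397192-188408521, spanned 11330 bp with 15.8-fold enrichment and 168 fragments. It overlapped no THP-1 peak, the nearest lying 5508 bp away, and was the widest of all 35520 M2-only peaks. The third, chr3:188294811-188304498, spanned 9688 bp around 1 THP-1 peak of 1441 bp, chr3:188301567-188303007. Behind the BCL6 start peak in width came chr3:188535943-188541435, which spanned 5493 bp in LPP around 2 THP-1 peaks.

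Other M2-only peaks of LPP were also wide and strong. The peak chr3:188000585-188005858 spanned 5274 bp (15.1-fold, 124 fragments) and chr3:188511544-188516518 spanned 4975 bp (9.44-fold, 111 fragments). The peaks chr3:188184938-188189429 and chr3:188417326-188421408 spanned 4492 and 4083 bp, with 121 and 100 fragments. A narrower one, chr3:188322731-188326363, had the second highest fold enrichment of the M2 members at 16.0, and the nearest THP-1 peak lay 19723 bp from it. The highest, 16.2-fold, belonged to chr3:187987617-187992841, whose left edge overlapped the THP-1 peak of highest fold enrichment, chr3:187987100-187988932 (8.43-fold, 39 fragments).

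Some sites in LPP went the other way. At chr3:188033555-188034195 (6.70-fold in THP-1) the THP-1 summit held 59 fragments (level 33.4) and the M2 summit 52 (level 22.6), with summits 1 bp apart. The neighbouring THP-1 peak, chr3:188034430-188034992, stood at 15.9 against 9.12 in M2. In the other 7 LPP pairs in which each peak overlapped just the other the M2 level was higher. Over the 9 pairs the ratio of M2 to THP-1 level had a median of 2.27 (range 0.575 to 3.94), with summits within 1 kb in 7 of them. The pairs with summits farther apart, at ratios of 3.01 and 3.35, raise this median and are not readings of the same spot.

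**Figure D2:**
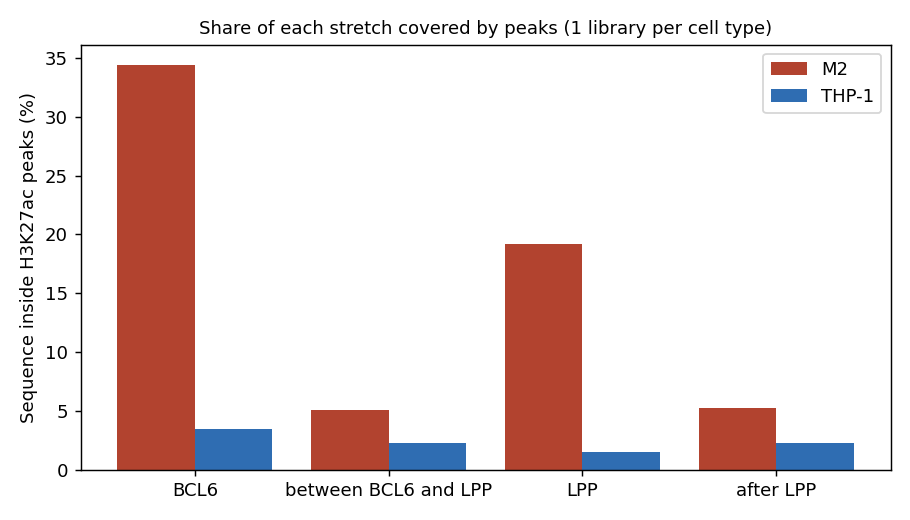
Share of sequence inside H3K27ac peaks (vertical axis, %) in BCL6, between the genes, in LPP and after LPP, for M2 and THP-1 (1 library each, so no error bars). The M2 bar is far above the THP-1 bar in BCL6 (34.4% and 3.46%) and LPP (19.2% and 1.47%), and the gap is smaller in the other stretches.

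Along LPP the M2 peaks formed runs of neighbouring peaks. With peaks within 12.5 kb joined, the run with the most M2 sequence was chr3:188363929-188438664, where 10 peaks covered 29.3 kb against 0.766 kb of THP-1 peaks. It was rank 35 of 25897 such M2 runs by covered sequence. In the run chr3:188275528-188326363 the M2 peaks came to 22.3 kb and the THP-1 peaks to 1.44 kb. In chr3:187982096-188034799 they came to 19.9 and 3.49 kb. The run chr3:188184938-188244539 held 12 M2 peaks over 18.5 kb and no THP-1 peak, and chr3:188488998-188516518 held 7 M2 peaks over 10.5 kb and none. The third longest gap between THP-1 peaks in the whole stretch, 146 kb inside LPP, held 13 M2 peaks with 32.7 kb. The longer THP-1 gaps held far less M2 sequence. The one of 183 kb between the genes met 8 M2 peaks with 4.74 kb inside it, and the one of 300 kb after LPP met 2 with 1.54 kb.

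After LPP the ratio of cover was lower again. From 188.608 to 189 Mb the M2 list had 11 peaks over 20.6 kb (5.26%) and the THP-1 list 9 over 8.86 kb (2.26%), a ratio of 2.33. Most of it lay in the run chr3:188618705-188672453, with 16.9 kb of M2 and 6.34 kb of THP-1 peaks. Inside it, chr3:188665893-188670133 had the most fragments over its summit of all M2 members, 246, and the THP-1 summit within it, 182 bp away, held 112. Their levels were 107 and 63.5, and their local backgrounds 27.9 and 16.8 times the lowest. This run also held the widest THP-1 member, chr3:188657371-188660115, at 2745 bp and 5.92-fold enrichment. The longest gap between THP-1 peaks in the stretch, 300.4 kb, followed, and the longest M2 gap, 177 kb, lay here as well. Near the end of the stretch a THP-1 peak of 1324 bp, chr3:188994936-188996259, overlapped 2 M2 peaks. Only 2 THP-1 members overlapped no M2 peak, chr3:187669305-187669870 between the genes (12 fragments) and chr3:188693111-188693522 after LPP (14 fragments).

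The whole stretch held 192 kb of M2 and 29.7 kb of THP-1 peak sequence, a ratio of 6.45, against 1.99 on chromosome 3 outside it. In the stretch 33 of 35 THP-1 peaks were shared (94.3%), beside 75.3% over all chromosomes. Of the 101 M2 peaks 28 were shared (27.7%), beside 37.0%, and in LPP 11 of 67 (16.4%). The THP-1 share was 84.6% with the stretch widened by 100 kb on each side and 85.7% in lists of equal length. For lists of equal length no share over all chromosomes was computed. Neighbouring peaks of a library are not independent and the stretch was chosen on the same positions, so nothing is read from these differences.

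Stretches of 1.6 Mb were laid end to end along the chromosomes, and 158 empty ones were left out. Set beside the 1723 other stretches that remained, the M2 cover of 192 kb was exceeded by 1, at 199.6 kb. The THP-1 cover of 29.7 kb was exceeded by 296, where the median was 11.2 kb. The 1 stretch with more M2 cover had 51.9 kb in THP-1, a ratio of 3.85. A ratio above 6.45 was found in 77 of the 1680 stretches that held THP-1 peaks, and among those 77 the highest M2 cover was 99.5 kb. The stretch was chosen with its density known and its bounds were fitted to it, so these ranks describe it and are no test.

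**Figure D3:**
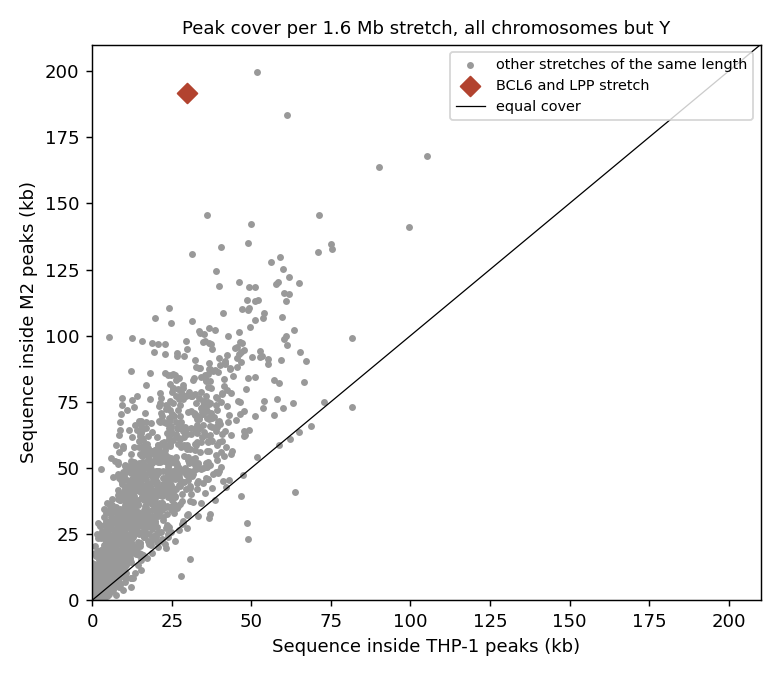
Sequence inside THP-1 peaks (horizontal axis, kb) and M2 peaks (vertical axis, kb) per stretch of 1.6 Mb. Grey points are the 1723 other stretches that were not empty, the diamond is the BCL6 and LPP stretch and the line marks equal cover. The diamond, at 29.7 and 192 kb, lies near the top of the M2 axis and low on the THP-1 axis.

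The extra M2 cover came from wide peaks as well as from more peaks. The median M2 member was 1022 bp wide, against 743 bp over the M2 list, and the median THP-1 member 666 bp, against 661 bp over the THP-1 list. Peaks wider than 4000 bp made up 12 of the 101 M2 members (11.9%) and 1.77% of the M2 list, and 9 of the 12 lay in LPP. No THP-1 member was that wide, against 0.792% of the THP-1 list. With peaks above 4000 bp left out of both lists, an alternative added after the data were seen, the ratio of cover was 3.82 in the stretch and 7.32 in LPP. By number of peaks alone, the ratio of M2 to THP-1 was 2.89 in the stretch, 4.79 in LPP and 1 in BCL6, where each list has 2 peaks. Over all chromosomes this ratio was 1.79, and on chromosome 3 outside the stretch 1.69. The cover ratios without wide peaks have no such value beside them.

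Where peaks of both lists met, M2 summits mostly held the higher level in BCL6, in LPP and after LPP, but not between the genes. In 19 pairs of the whole stretch each peak overlapped just the other, 2 in BCL6, 6 between the genes, 9 in LPP and 2 after it. Summits lay within 1 kb in 1 of the BCL6 pairs, 7 of the LPP pairs and all others. The remaining pairs do not give readings of the same spot. Their ratios of M2 to THP-1 level were 3.74 in BCL6 and 3.01 and 3.35 in LPP. All of them raise the count and median that follow, which include them. The M2 level was the higher in 14 of the 19 pairs (73.7%). The ratio of levels had its median at 1.59 and its quartiles at 0.896 and 2.64. Over all chromosomes it was higher in 45.4% of 14648 such pairs, with a median of 0.939 and quartiles of 0.649 and 1.38. Local background was higher in THP-1 in 10 of the 19 pairs, with a median ratio of THP-1 to M2 of 1.28, against 2.12 over all chromosomes. In LPP it was higher in THP-1 in 4 of 9 pairs, with a median ratio of 0.827, and between the genes in 5 of 6, with a median of 2.19.

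All 54 M2-only summits of LPP with a solved level stood above 4.53, the lowest level called in THP-1. Over all chromosomes 33962 of 34029 did. These peaks had passed the M2 call, so this was nearly settled beforehand and is not particular to LPP. Of the 54 with a solved level, 50 exceeded 9.06, the level below which the lowest 10% of THP-1 peaks lie, and 22 exceeded 22.7, the median THP-1 level. Over all chromosomes 74.0% and 27.9% of M2-only peaks did. The THP-1 signal and background at these sites are not in the lists, so a call missed in THP-1 and an absent mark cannot be told apart.

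**Figure D4:**
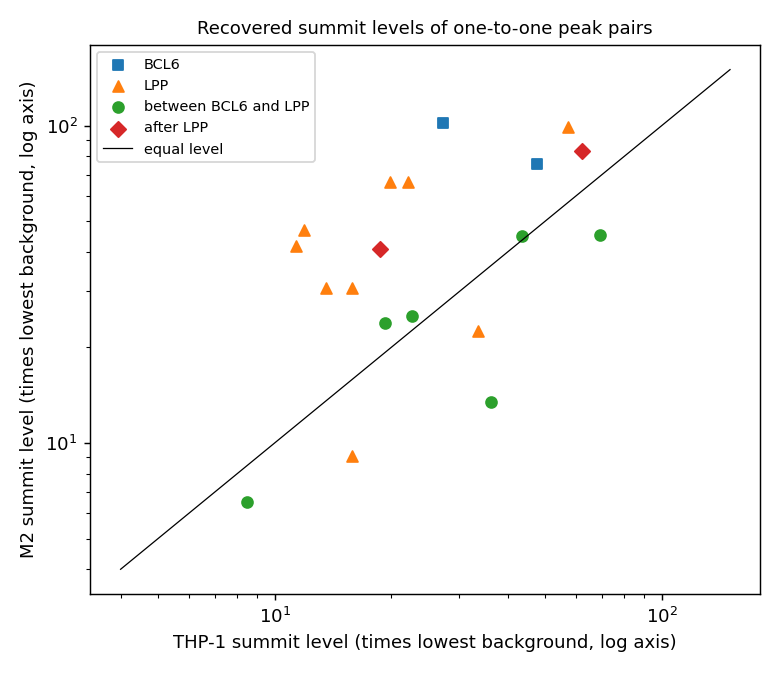
Summit levels (fragments over the summit times the scale of the list, divided by the lowest background of the list) on log axes. Shown are the 19 pairs in which an M2 and a THP-1 peak overlapped just each other. THP-1 is on the horizontal and M2 on the vertical axis. Symbols give the stretch and the line marks equal levels. Of 9 LPP pairs 7 lie above the line, and the 6 pairs between the genes lie on both sides of it.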

How the data were processed

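Chromatin of THP-1 and M2 cells was immunoprecipitated for H3K27ac and sequenced as paired ends, per the labels' protocols. The submitters' processing notes name Bowtie2, MACS2 2.1.0 and the build hg19, and settings and control use are not given in the sources used here. Of 6 libraries 4, for YY1 and input, were not analysed here. The fold enrichment (a ratio at the summit over local background), the -log10 p and -log10 q and the score of each peak are the authors' deposited values, the score being unused. The Y chromosome was left out. Peak numbers do not start at 1, so entries before the first are not used here.

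The bounds of BCL6 and LPP are given to the nearest kb. Covered length is the sequence inside peaks, and overlap means at least 1 bp. A peak across a bound of a stretch counts in each. Fragments were solved from the deposited fold and -log10 p with MACS2's formulas: the pileup was a whole number within 0.02 at a scale of 0.842 for M2 and 1 for THP-1. A single solution was found for 96.5% of the M2 list and 94.1% of the THP-1 list, and the lowest background was 1.94 and 1.77. The median summit held 40 fragments in each list. These are inferences, not counts the authors gave. Solving and overlap were tested on simulated data. Python 3.11.15, numpy 2.4.6, pandas 2.3.3 and scipy 1.17.1 were used.

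The named peaks are those at the gene starts and, per list, the 5 widest, the 5 of highest fold and the 5 widest in that list only, with the densest runs and longest gaps; peaks in pairs with a higher THP-1 level and the M2 member with the most fragments were named after their values were seen. The members, lists and motifs were chosen with earlier results of these data known. No test was made between single libraries.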

Additional observations from a re-analysis of the deposited data

How the results depend on the processing

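No paired analysis was possible because each cell type has 1 H3K27ac library. Every ratio of M2 to THP-1 cover or peak number stayed above 1 in the alternatives run, except that of BCL6 at 500 bp per peak. With peaks kept from a -log10 q of 10 upwards, the ratio of cover was 10.1 in the stretch, 19.4 in BCL6 and 27.3 in LPP, the ratio of peak numbers 4.60, and 100% of 15 THP-1 peaks were shared. In lists of equal length the ratio of peak numbers was 1.80. With 500 bp around each summit the ratio of cover was 2.89 in the stretch, 1 in BCL6, 4.79 in LPP and 1.22 after LPP, which by construction are the ratios of peak numbers and no separate check. Without peaks above 4000 bp, chosen after the data were seen, it was 3.82 in the stretch and 7.32 in LPP. Ratios and shares over all chromosomes are given only for all deposited peaks at an overlap of 1 bp, not for these alternatives. The 100% above therefore has no share over the whole THP-1 list beside it. When 50% of a peak had to be overlapped, 13.9% of M2 peaks in the stretch were shared. The share over the whole M2 list under that rule was not computed, so nothing is read from the drop. The other 26 alternatives left a ratio within 1.5 times, or a share within the exact 95% binomial interval, of its reported value. Among these, the share of THP-1 peaks that were shared was 84.6% in the widened stretch (interval 69.5 to 94.1) and 85.7% in lists of equal length (69.7 to 95.2). The interval of the widened stretch holds the 75.3% over all chromosomes. That value is of the full lists, and none was computed for lists of equal length. These intervals treat peaks as independent, which neighbouring peaks of a library are not, so nothing is read from them. THP-1 members had 12 to 122 fragments over their summits and M2 members 14 to 246. The lowest solved number in the THP-1 list was 8 fragments. The number needed for a call rises with the local background. At the LPP start, where background was high, the THP-1 peak had 101 fragments and a -log10 q of only 4.77. A site without a THP-1 peak may therefore have held more than 8 fragments.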
